A study of Mus musculus with 30 samples.

Results

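Glutathione is the main small thiol of the hepatocyte, and 32 genes that supply, build, recycle, conjugate or spend it were followed in AML12 cells, a mouse hepatocyte line, by RNA-seq. The 32 genes were taken by name from the 49089 Ensembl identifiers that the files list. The rule uses no measured value, though the list was drawn up with earlier results of these data known. They comprise 4 genes of supply and synthesis (Slc7a11, Gclc, Gclm, Gss), 3 of recycling and turnover (Gsr, Ggct, Oplah), 17 soluble glutathione transferases (alpha Gsta1 to Gsta4, mu Gstm1 to Gstm7, theta Gstt1 to Gstt3, Gsto1, Gstk1 and Gstz1), 3 microsomal transferases (Mgst1 to Mgst3) and 5 peroxidases (Gpx1, Gpx3, Gpx4, Gpx7, Gpx8). Of the 32 genes, 25 passed the filter on low counts and were tested among 11368 genes. The other 7 are described by their counts.

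The cells carried nonsilencing siRNA (Control) or siRNAs against the Forkhead factors FoxK1 (FoxK1 KD), FoxK2 (FoxK2 KD) or both (DKD), so that each knockdown was transient and partial. Every group was serum-starved overnight in DMEM with 0.1% BSA and then left without insulin (basal) or given 100 nM insulin for 6 h. There were 8 groups of 4 replicates, apart from insulin-treated Control and insulin-treated DKD, which had 3 each. Basal samples are labelled 0 min, whereas the labelled protocol speaks of mock treatment. The labels do not say that replicates were separate cultures, and p-values then measure the spread between these samples, which may be technical. All libraries come from a single cell line.

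Counts per sample ranged from 2141460 to 5668270. Foxk1 was 45.2% of its Control mean in FoxK1 KD and 57.1% in DKD cells at basal, and Foxk2 was 33.7% in FoxK2 KD and 35.8% in DKD cells. After insulin the same values were 58.3% and 64.6% for Foxk1 and 40.4% and 39.5% for Foxk2. Insulin itself lowered Foxk1 in Control cells (log2 -0.62, adjusted p = 0.00037 by edgeR), from a mean of 81.4 to 53.0 CPM (read counts scaled to the library total). The mean went from 36.8 to 30.9 CPM in FoxK1 KD and from 46.5 to 34.2 CPM in DKD cells. At basal Foxk2 was also lower in FoxK1 KD cells (83.5% of Control, adjusted p = 0.0487 by edgeR). Foxk1 was 85.8% of Control in FoxK2 KD cells (adjusted p = 0.441). Of 10 hepatocyte markers 8 passed the filter, with a summed level of 1499 to 2433 CPM, while Apoa1 and Apoe did not pass. The sum was uneven: in Control basal cells the keratin gene Krt8 averaged 553.5 CPM, Hnf4a 116, Ttr 34.4 and Alb only 9.16 CPM. Of 5 bile duct markers 4 passed (1339 to 2825 CPM, Epcam at 0), of 5 macrophage markers only Csf1r (list sum 4.09 to 22.1 CPM, Adgre1 at 0), and of the 6 stellate and 5 endothelial markers none (up to 1.39 and 0.706 CPM, Pdgfrb and Lrat at 0). Their part in the results below was not tested. The 12 basal libraries of Control, FoxK1 KD and FoxK2 KD cells were set against the other 18, the DKD basal and all insulin libraries. Across this divide 52 tested genes were lower in all 12 than in all 18, 10 of them pseudogenes, and 83 were higher, with 0 glutathione genes in either set. Other divisions of the libraries were not counted, and the part of insulin in these genes was not tested. DKD against Control at basal and the insulin effects in Control, FoxK1 KD and FoxK2 KD cells run across this divide, so that for them it cannot be told apart from the groups. The same limit holds for the insulin effect of DKD minus that of Control or FoxK1 KD cells. Both DKD groups lie within the 18 libraries, while the other effect runs across the divide. Across genes, the log2 fold change of DKD against Control at basal followed GC content with Spearman's rho 0.466 over 11368 genes, which are not independent replicates. Control basal replicate 1 correlated least with its own group.

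Cystine enters the cell through the xCT exchanger, whose transport chain is encoded by Slc7a11, and is reduced to cysteine. Glutamate-cysteine ligase (catalytic subunit Gclc, modifier Gclm) makes the rate-limiting dipeptide, and Gss adds glycine. Transferases attach glutathione to electrophiles, peroxidases use it to reduce peroxides, and Gsr returns the oxidised form to the reduced form with NADPH. In liver this system carries much of the handling of drugs and of lipid peroxidation products. Several of its genes are known targets of NRF2, which binds the antioxidant response element, and Slc7a11 is also a known target of ATF4.

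The promoter of Slc7a11 is shown because this gene had the largest insulin response of the 25. RefSeq promoters (GRCm38.p6) matched 27 of the 32 genes with 38 entries, and the 250 bases before each start were searched on both strands for TGACNNNGC (the core of the antioxidant response element), TGATGNAA (a C/EBP-ATF composite element) and GTAAACA (a forkhead motif). In the sequence of Slc7a11 (chr3:50443614-50443863, minus strand), capitals mark the forkhead motif read on the opposite strand and, nearer the start, the composite element once on each strand.
Slc7a11: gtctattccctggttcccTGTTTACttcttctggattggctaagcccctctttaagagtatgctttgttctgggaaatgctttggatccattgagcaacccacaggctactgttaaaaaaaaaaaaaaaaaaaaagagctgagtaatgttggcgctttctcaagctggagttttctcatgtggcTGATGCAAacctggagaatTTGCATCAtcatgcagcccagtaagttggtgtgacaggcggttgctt

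Slc7a11 was the only 1 of the 27 genes whose promoter held TGATGNAA or GTAAACA, motifs found in 3.45% and 3.17% of all 32851 RefSeq promoters. TGACNNNGC was found in 6 of the 38 promoters and in 10.2% of all promoters, and its matches (capitals) are shown with 20 bases on either side for the 4 of these genes with an insulin call in Control cells and for Gclm.
Gsta3 (chr1:21240444-21240492, plus strand): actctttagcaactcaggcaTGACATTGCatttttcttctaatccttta
Gstm5 (chr3:107895792-107895840, plus strand): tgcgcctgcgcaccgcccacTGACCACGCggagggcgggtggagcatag
Gstm7 (chr3:107931715-107931763, minus strand): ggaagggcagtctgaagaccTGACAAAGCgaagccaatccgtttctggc
Mgst1 (chr6:138140451-138140499, plus strand): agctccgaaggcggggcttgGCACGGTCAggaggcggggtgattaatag
Gclm (chr3:122245403-122245451, plus strand): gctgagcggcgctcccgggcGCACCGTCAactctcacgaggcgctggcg
These 5 genes did not move together. After insulin, Gsta3 and Mgst1 rose in Control cells, Gstm5 and Gstm7 fell, and Gclm had a log2 fold change of 0.18 (adjusted p = 0.115 by edgeR). A match describes these letters in this window and is not a measured binding site.

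Expressed per length of the gene model, the recycling and rate-limiting enzymes were the most abundant of the genes. In Control basal cells, Gsr had 252.1 ± 33.2 RPKM (CPM divided by the exonic length in kilobases, SD, n = 4) and Gclc 234.6 ± 27.7, and their samples overlapped. Gpx1 followed with 111.8 ± 25.3, Gsto1 with 86.2 ± 12.4 and Gpx4 with 66.3 ± 13.3, neighbours whose spreads also overlapped. Gstm1 and Gsta3 led the mu and alpha classes with 45.5 ± 2.34 and 43.1 ± 3.54 RPKM. The modifier Gclm, at 27.6 ± 1.75 RPKM, was far below its partner Gclc, and Slc7a11 had 0.603 ± 0.122 RPKM, below all tested genes but Ggct (0.389 ± 0.136). The order of levels was wide, from 0.389 to 252.1 RPKM among the 25 genes.

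**Figure D1:**
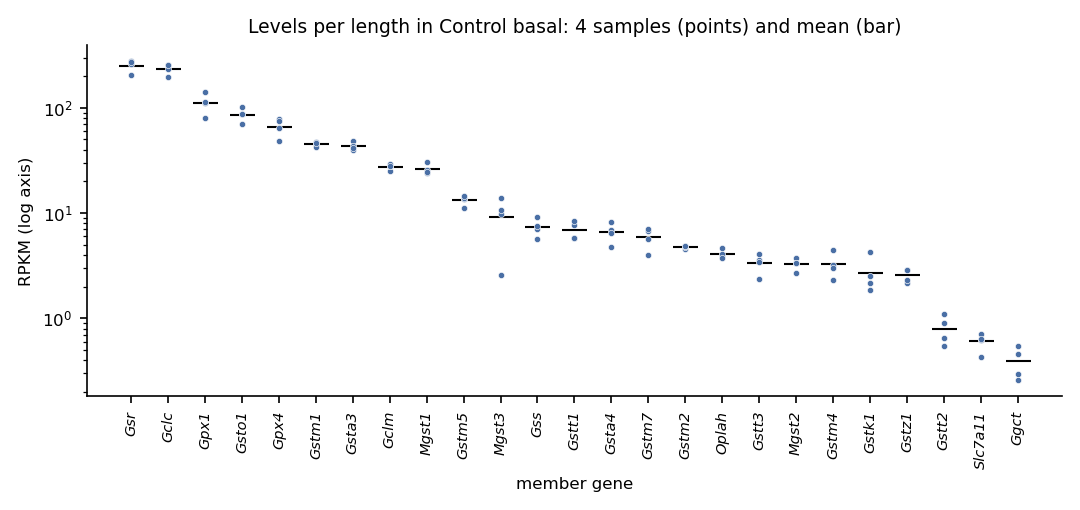
Level of each of the 25 tested glutathione genes in Control basal cells, in RPKM on a log axis, with 4 samples as points and their mean as a bar. Gsr and Gclc lie highest, and Slc7a11 and Ggct lie lowest.

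More of these genes were called for insulin in Control cells (10) than for any knockdown against Control (7 at most), but this order depended on the fit. With 1 sample left out, insulin in Control gave 6 to 11 calls and DKD at basal 6 to 8. Insulin in DKD cells then gave 2 to 6 calls, beside 7 with all samples. With only the groups compared, insulin in Control gave 4. In Control cells insulin raised 5 and lowered 5 of the 25 tested genes at an FDR below 0.05 (edgeR's quasi-likelihood test), a share of 40.0% where 25.4% of all tested genes were called, 12.4% higher and 13.1% lower. In FoxK1 KD cells 7 rose and 1 fell (32%, with 31.6% of all genes, 16.2% higher and 15.4% lower), in FoxK2 KD cells 4 rose and 3 fell (28.0%, with 28.1%, 14.4% higher and 13.7% lower), and in DKD cells 5 rose and 2 fell (28.0%, with 16.3%, 8.31% higher and 7.99% lower). By these calls Slc7a11, Gsta3 and Gsta4 rose in all 4 genotypes, and no gene of the set was called lower in more than 2. The median log2 fold change of the 25 genes was -0.04 in Control and -0.04 in DKD cells, beside -0.01 over all genes in Control.

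DKD changed 7 of the 25 genes at basal, 5 higher and 2 lower (28.0%, where 21.1% of all genes were called, 10.3% higher and 10.8% lower), with a median log2 fold change of 0.18 beside -0.00 over all genes. The macrophage marker Csf1r was also higher in DKD cells at basal (log2 0.79) and in FoxK1 KD cells at basal (1.01) and after insulin (1.71). With insulin it fell in Control (log2 -1.70), FoxK1 KD (-1.01), FoxK2 KD (-1.59) and DKD cells (-1.49). Its part in the results on glutathione genes was not tested. FoxK1 KD raised 2 and lowered 1 (12%, with 8.09% of all genes, 3.39% higher and 4.71% lower), and FoxK2 KD raised 1 (4.0%, with 0.378%, 0.211% higher and 0.167% lower). After insulin, 2 genes were higher and 1 lower in FoxK1 KD than in Control cells (12%, with 3.59%, 1.86% higher and 1.72% lower), and 3 were higher in DKD cells (12%, with 1.21%, 0.871% higher and 0.343% lower). FoxK2 KD against Control after insulin gave 0 calls by edgeR, DESeq2 and limma-voom, with 5 genes at an unadjusted p under 0.05 and 0.0264% of all genes called, 0.0088% higher and 0.0176% lower. The comparisons of knockdowns with Control share the Control samples and are not independent of each other. Over the 13 comparisons 18 of the 25 tested genes were called at least once, and Ggct, Gstm4, Gstt1, Gstt2, Gstt3, Gstz1 and Mgst2 never.

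**Figure D2:**
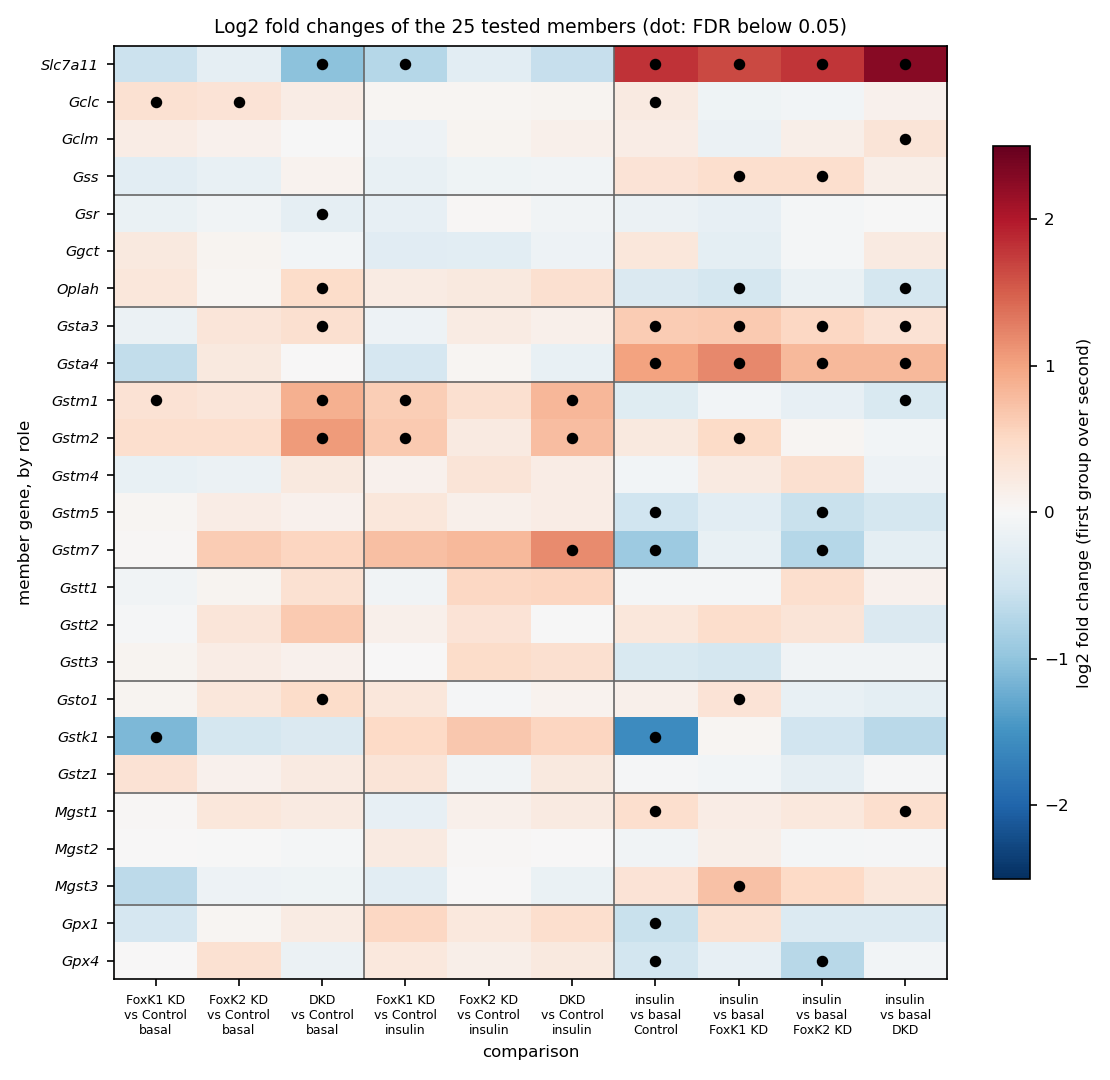
Log2 fold change of the 25 tested genes (rows, grouped by role) in 10 comparisons (columns), in colour from lower (blue) to higher (red), with a dot for an FDR below 0.05. Slc7a11, Gsta3 and Gsta4 carry dots in the 4 insulin columns, and Gstm1 and Gstm2 carry dots for DKD against Control both at basal and after insulin.

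The study set an FDR below 0.25, for insulin together with a fold change above 1.5. At an FDR below 0.25 alone, at basal, 13 were called for FoxK1 KD (26.6% of all genes), 5 for FoxK2 KD (3.59%) and 12 for DKD (43.6%). After insulin, 7 were called for FoxK1 KD (15.1%), 0 for FoxK2 KD by edgeR (0.238%, with 5 at an unadjusted p under 0.05) and 4 for DKD (6.66%). The insulin effect was called for 16 genes in Control (46.6%), 15 in FoxK1 KD (54.0%), 15 in FoxK2 KD (49.5%) and 11 in DKD cells (37.3%). These became 5, 4, 4 and 3 genes once a fold change above 1.5 was also required, fewer than at an FDR below 0.05. Of the differences from Control in insulin effect, 3 were called for FoxK1 KD (3.4%), 0 for FoxK2 KD by edgeR (0.0%, with 3 at an unadjusted p under 0.05) and 1 for DKD (9.88%).

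Slc7a11, the cystine transporter gene (chr3:49892526-50443614, minus strand, GRCm38), had the largest rise with insulin of the 25 tested genes in every genotype. Its level in Control cells was 5.95, 8.75, 9.92 and 8.93 CPM at basal and 23.5, 29.1 and 37.7 CPM after insulin. Every insulin sample exceeded every basal sample, by 3.52-fold in the fit (log2 1.82, SE 0.17, adjusted p = 6.79e-10 by edgeR). As the RNA is from bulk cultures, a change in RNA per cell and a change in the share of cells that express a gene cannot be told apart.

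In DKD cells Slc7a11 started lower. The basal samples had 4.59, 4.07, 4.17 and 3.85 CPM, all below the lowest Control sample, and the level was 0.493 times that of Control (log2 -1.02, SE 0.23, adjusted p = 0.00135 by edgeR). These are 9 to 16 counts per sample, against 21 to 50 in Control. After insulin, DKD cells had 20.5, 20.5 and 19.7 CPM, again below all Control samples, although that difference did not pass the test (log2 -0.57, SE 0.17, adjusted p = 0.0886). The rise with insulin was 4.82-fold in DKD cells (log2 2.27, SE 0.21, adjusted p = 9.75e-10), and its difference from Control, 0.45 on the log2 scale with an SE of 0.28, did not pass the test (adjusted p = 0.478).

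The single knockdowns kept the insulin response of Slc7a11. Basal levels were 5.66, 4.95, 5.88 and 6.69 CPM in FoxK1 KD cells and 7.41, 8.47, 5.62 and 7.47 CPM in FoxK2 KD cells, ranges that overlap that of Control. After insulin they were 19.6, 23.5, 14.4 and 15.6 CPM in FoxK1 KD and 21.8, 24.2, 25.2 and 28.7 CPM in FoxK2 KD cells. The rise was 3.14-fold (log2 1.65, SE 0.19, adjusted p = 4.57e-08) and 3.43-fold (log2 1.78, SE 0.17, adjusted p = 5.41e-10 by edgeR). Insulin-treated FoxK1 KD cells were lower than insulin-treated Control cells by edgeR (log2 -0.70, SE 0.16, adjusted p = 0.0102), a call that was lost without Control insulin replicate 3, the highest sample (log2 -0.52, adjusted p = 0.100), or FoxK1 KD insulin replicate 4.

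**Figure D3:**
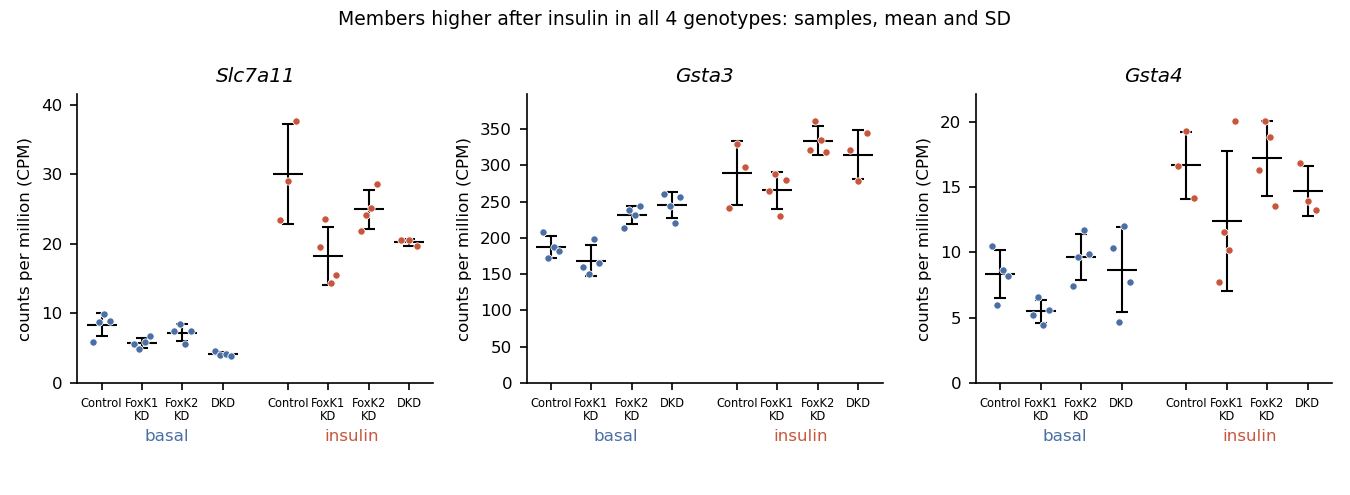
CPM of Slc7a11, Gsta3 and Gsta4 in each sample (points) with the mean and SD (bars), for 4 genotypes at basal (blue) and after insulin (red). For Slc7a11 all insulin samples, from 14.4 to 37.7 CPM, lie above all basal samples, which reach 9.92 CPM.

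Gclc, the catalytic subunit of the rate-limiting ligase, was higher in both single knockdowns at basal. Control cells had 737, 965, 880 and 951 CPM, FoxK1 KD cells averaged 1157 ± 71.9 CPM and FoxK2 KD cells 1119 ± 45.8 CPM (SD, n = 4), and neither knockdown overlapped Control. The fold changes were small, 1.31 for FoxK1 KD (log2 0.39, SE 0.07, adjusted p = 0.000897) and 1.27 for FoxK2 KD (log2 0.34, SE 0.07, adjusted p = 0.0254 by edgeR). Both calls were lost when only the groups compared were fitted (adjusted p = 0.120 and 0.526), with fold changes nearly the same. The FoxK2 KD call was also lost without Control basal replicate 1, the lowest sample (adjusted p = 0.0866), and without any of the 4 FoxK2 KD replicates. DKD cells, at 998 ± 25.3 CPM, lay between and overlapped Control only through its replicate 2 (log2 0.18, adjusted p = 0.0839).

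With insulin, Gclc rose in Control cells to 1030 ± 82.5 CPM (SD, n = 3; log2 0.22, SE 0.08, adjusted p = 0.0361), a call lost without Control basal replicate 1 (log2 0.15, adjusted p = 0.127) or 3 or Control insulin replicate 2 or 3. Gclm, the ligase modifier, rose in DKD cells from 169, 177, 171 and 173 to 195, 223 and 226 CPM (log2 0.31, SE 0.08, adjusted p = 0.00791), with no overlap, and the call was lost without DKD insulin replicate 3 (adjusted p = 0.0532). Gss, glutathione synthetase, rose in FoxK1 KD cells by 1.33-fold (adjusted p = 0.0229) and in FoxK2 KD cells by 1.34-fold (adjusted p = 0.0152), beside log2 0.34 in Control (adjusted p = 0.074 by edgeR). The FoxK1 KD call was lost without any of 4 samples in turn and the FoxK2 KD call without FoxK2 KD basal replicate 1 or insulin replicate 1. The exons of Gss overlap those of Acss2 on the opposite strand over 395 bases, and the strand setting of the counting is not given in the sources used here.

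Among the genes of recycling and turnover, DKD moved Gsr and Oplah in opposite directions at basal. Oplah, the 5-oxoprolinase of glutathione breakdown, had 22.7, 27.2, 24.1 and 21.6 CPM in Control and 35.3, 36.1, 34.7 and 26.2 CPM in DKD cells (1.38-fold, log2 0.46, SE 0.13, adjusted p = 0.00838 by edgeR). The groups overlapped only through DKD replicate 4. With an offset for GC content and length the change was 0.25 (adjusted p = 0.144), and Oplah has a GC content of 58.8%. Gsr had 560, 760, 712 and 745 CPM in Control and 614, 592, 596 and 564 CPM in DKD cells (log2 -0.23, SE 0.08, adjusted p = 0.0338), a difference within the range of Control samples and lost without any of 6 samples in turn. With insulin, Oplah fell in FoxK1 KD (log2 -0.43, SE 0.14, adjusted p = 0.0155) and DKD cells (log2 -0.43, SE 0.14, adjusted p = 0.0319), beside log2 -0.36 in Control (adjusted p = 0.0741). The DKD call was lost without any of 6 of the 7 samples in turn, and the FoxK1 KD call without FoxK1 KD basal replicate 3 or insulin replicate 2. Oplah shares exonic bases with Smpd5 and Exosc4 on the opposite strand. Ggct, a gamma-glutamyl cyclotransferase, had 5 to 20 counts per sample and was not called in any comparison.

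Both tested alpha-class transferases rose with insulin in all 4 genotypes. Gsta3, which in mice conjugates the activated form of aflatoxin B1, had 208, 172, 187 and 182 CPM at basal in Control cells and 242, 329 and 298 CPM after insulin. No sample overlapped, and the rise was 1.55-fold (log2 0.63, SE 0.10, adjusted p = 1.45e-05 by edgeR). In FoxK1 KD cells the rise was 1.58-fold (adjusted p = 2.92e-06), in FoxK2 KD cells 1.44-fold (adjusted p = 5.26e-05) and in DKD cells 1.28-fold (adjusted p = 0.0124), with no overlap of basal and insulin samples in any genotype. The DKD value was 0.25 on the log2 scale with a GC and length offset (adjusted p = 0.134), the call was lost without DKD basal replicate 3 or DKD insulin replicate 3, and its difference from Control was -0.27 with an SE of 0.14 (adjusted p = 0.382). At basal, DKD cells were higher than Control with 261, 244, 221 and 256 CPM and no overlap (1.31-fold, log2 0.39, SE 0.09, adjusted p = 0.00292).

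Gsta4, which conjugates 4-hydroxynonenal and related products of lipid peroxidation, was less abundant but rose more. Control cells had 10.5, 6.00, 8.68 and 8.21 CPM at basal and 16.6, 19.3 and 14.2 CPM after insulin, without overlap (2.01-fold, log2 1.0, SE 0.23, adjusted p = 0.00155 by edgeR). The rise was 2.30-fold in FoxK1 KD (log2 1.20, SE 0.26, adjusted p = 0.00062), 1.76-fold in FoxK2 KD (log2 0.81, SE 0.21, adjusted p = 0.00375) and 1.75-fold in DKD cells (log2 0.81, SE 0.25, adjusted p = 0.0224). The DKD call was lost without DKD basal replicate 2 (log2 0.59, adjusted p = 0.111), DKD basal replicate 4 or DKD insulin replicate 1. No knockdown changed Gsta4 at an FDR below 0.05, and its basal level in DKD cells was 8.68 ± 3.22 CPM (SD, n = 4) beside 8.35 ± 1.85 in Control.

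The 7 mu-class genes lie in a cluster on chromosome 3 (chr3:107895821-108044894, GRCm38), and Gstm1 and Gstm2 had the largest rises of the 25 tested genes in DKD against Control cells at basal. Gstm1 had 70.3, 66.0, 62.5 and 68.9 CPM in Control and 135, 102, 146 and 118 CPM in DKD cells at basal. Every DKD sample was above every Control sample (1.86-fold, log2 0.90, SE 0.12, adjusted p = 1.06e-06 by edgeR). Gstm2, at a lower level, had 7.66, 8.0, 8.19 and 8.21 CPM in Control and 16.6, 17.4, 15.3 and 17.7 CPM in DKD cells, again without overlap (2.10-fold, log2 1.07, SE 0.15, adjusted p = 4.81e-06). Both calls held with DESeq2, limma-voom, the other scalings, filters and thresholds, the GC and length offset and the replicate block, and without any sample in turn.

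The same genes were higher in DKD cells after insulin. Gstm1 had 66.2, 47.1 and 48.4 CPM in Control and 92.0, 109 and 88.4 CPM in DKD cells (1.77-fold, log2 0.82, SE 0.14, adjusted p = 0.000602 by edgeR). Gstm2 had 9.23, 10.4 and 8.80 CPM in Control and 14.6, 19.4 and 15.2 CPM in DKD cells (1.70-fold, log2 0.77, SE 0.17, adjusted p = 0.0169). Neither gene overlapped between the groups. These comparisons lie within the 18 libraries on 1 side of the divide described above. The Gstm2 call was lost without Control insulin replicate 1 or 3 or DKD insulin replicate 2 (adjusted p = 0.107 without the latter).

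Gstm1 was also higher in FoxK1 KD cells in both states and Gstm2 after insulin, and their differences from DKD cells were not tested. Gstm1 rose at basal to 86.9, 90.8, 80.7 and 88.0 CPM (log2 0.37, SE 0.12, adjusted p = 0.0426), a call lost without any of 6 samples in turn, Control basal replicate 1 among them (adjusted p = 0.0602), and after insulin to 73.9, 74.7, 91.0 and 92.4 CPM (log2 0.61, SE 0.13, adjusted p = 0.00611 by edgeR), a call lost without Control insulin replicate 2 or 3. Gstm2 was higher after insulin (log2 0.65, SE 0.17, adjusted p = 0.0263), a call lost without any of 4 samples in turn, and had log2 0.41 at basal (adjusted p = 0.0998), its samples at 9.96 to 11.9 CPM lying above all Control samples. In FoxK2 KD cells Gstm1 had log2 0.31 at basal (adjusted p = 0.275) and Gstm2 0.41 (adjusted p = 0.274). Reads may be shared between copies here: 18.9% of the 50-base stretches of Gstm1 also occur in other genes, mainly the pseudogene Gstm2-ps1 (94 counts in all 30 samples), and 5.66% of those of Gstm2.

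**Figure D4:**
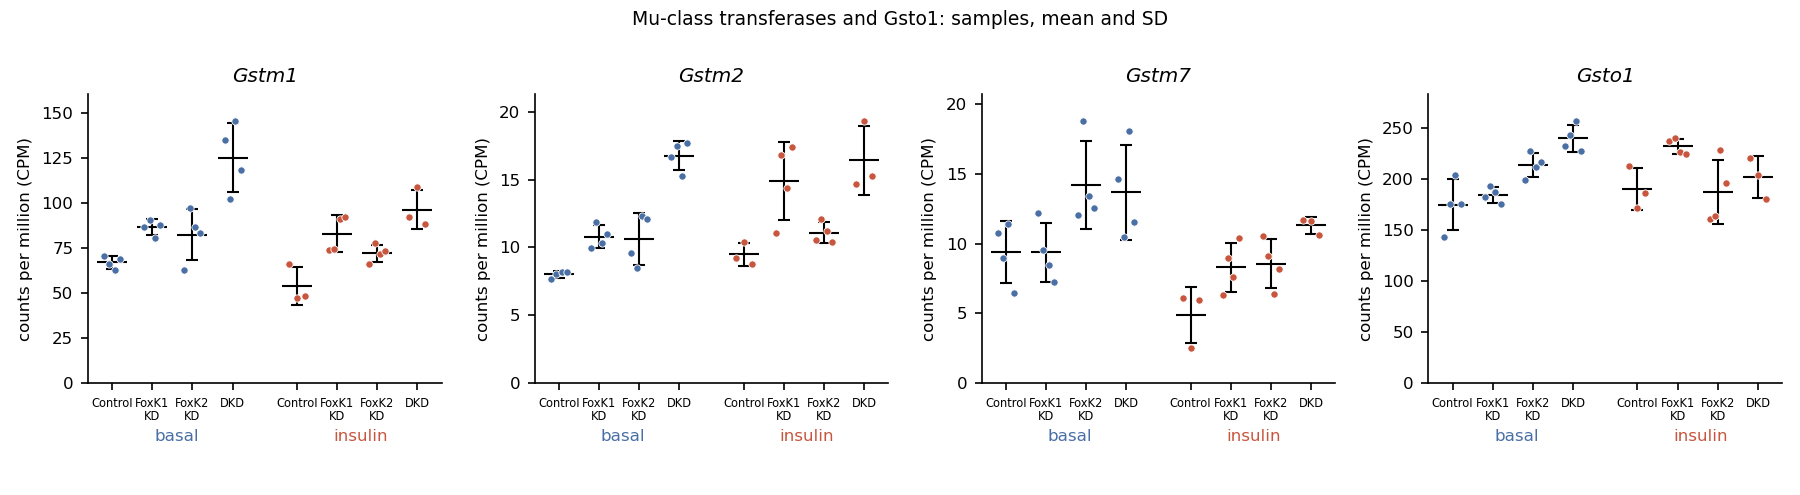
CPM of Gstm1, Gstm2, Gstm7 and Gsto1 in each sample (points) with the mean and SD (bars), at basal (blue) and after insulin (red). DKD samples of Gstm1 and Gstm2 lie above all Control samples in both states, from 88.4 to 146 CPM for Gstm1 and from 14.6 to 19.4 CPM for Gstm2.

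Insulin acted on the mu class unevenly. Gstm7 had 10.8, 9.0, 11.4 and 6.43 CPM in Control cells at basal and 6.07, 2.53 and 5.97 CPM after insulin (0.535-fold, log2 -0.90, SE 0.28, adjusted p = 0.0154 by edgeR), and it fell in FoxK2 KD cells as well (log2 -0.71, SE 0.21, adjusted p = 0.0105). In DKD cells it had 14.6, 10.5, 18.1 and 11.6 CPM at basal and 11.7, 11.6 and 10.6 CPM after insulin (log2 -0.24, adjusted p = 0.519). Insulin-treated DKD cells were 2.28-fold above insulin-treated Control cells (log2 1.19, SE 0.29, adjusted p = 0.0283). Control insulin replicate 2, with 8 counts, carried much of this: without it the fall in Control was 0.60 on the log2 scale (adjusted p = 0.146) and the DKD difference 0.88 (adjusted p = 0.184). The DKD call was also lost without Control insulin replicate 3 or any of the 3 DKD insulin replicates, and the FoxK2 KD call without FoxK2 KD basal replicate 2. The insulin effect of DKD minus Control cells was not called for Gstm7. At basal, DKD cells averaged 13.7 CPM beside 9.40 in Control, also not called. After insulin, all FoxK1 KD and FoxK2 KD samples lay above all Control samples without a call (means 8.31 and 8.56 beside 4.86 CPM). Such separation, in either direction, was seen for 16.0% and 7.27% of all tested genes.

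Gstm5 fell with insulin in Control cells, from 17.6, 14.2, 17.9 and 18.8 to 14.2, 9.80 and 11.9 CPM (log2 -0.51, SE 0.16, adjusted p = 0.0186), and in FoxK2 KD cells (log2 -0.57, SE 0.14, adjusted p = 0.00281 by edgeR). In FoxK1 KD and DKD cells it was not called, although all insulin samples lay below all basal samples (means 17.6 to 14.6 and 18.6 to 13.4 CPM). Such separation, in either direction, was seen for 31.9% and 28.7% of all tested genes. The Control call was lost without any of 3 samples in turn, Control basal replicate 4 and Control insulin replicates 2 and 3. Gstm5 shares 178 of its 1278 exonic bases with 4933431E20Rik on the opposite strand, and without a known strand setting the reads over these bases cannot be told apart. Gstm1 fell with insulin in DKD cells (log2 -0.38, SE 0.12, adjusted p = 0.0312) and Gstm2 rose in FoxK1 KD cells (log2 0.48, SE 0.15, adjusted p = 0.0163), both calls lost without single samples. Gstm4 had 2.94 to 8.80 CPM and was not called.

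Of the other soluble transferases, Gsto1, an omega-class enzyme with thioltransferase activity, was higher in DKD cells at basal. Control cells had 143, 175, 204 and 176 CPM and DKD cells 232, 243, 257 and 227 CPM, without overlap (1.37-fold, log2 0.45, SE 0.10, adjusted p = 0.000914 by edgeR), and the call held without any sample in turn. After insulin the groups overlapped, at 212, 171 and 186 CPM in Control and 220, 204 and 180 CPM in DKD cells (log2 0.08, adjusted p = 0.824). FoxK1 KD cells instead rose with insulin, from 182, 193, 187 and 175 to 236, 240, 226 and 224 CPM (log2 0.33, SE 0.10, adjusted p = 0.00862), a change of 0.22 with a GC and length offset (adjusted p = 0.0703). In DKD cells all insulin samples lay below all basal samples, but the fall was not called. Such separation, in either direction, was seen for 28.7% of all tested genes in DKD and 31.9% in FoxK1 KD cells. The insulin effect of DKD minus that of FoxK1 KD cells was -0.58 on the log2 scale (SE 0.14). This contrast was chosen because the samples separated in opposite directions, so the same values cannot test it and no p-value is given.

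Gstk1, the mitochondrial and peroxisomal kappa transferase, had only 3 to 22 counts per sample. In Control cells it had 6.24, 2.75, 3.72 and 3.21 CPM at basal and 1.58, 1.26 and 0.943 CPM after insulin, without overlap (0.336-fold, log2 -1.57, SE 0.36, adjusted p = 0.00137 by edgeR). FoxK1 KD cells had 1.58, 1.98, 1.41 and 2.14 CPM at basal, all below Control (log2 -1.13, SE 0.30, adjusted p = 0.0158), a call lost without Control basal replicate 1 (log2 -0.86, adjusted p = 0.140) or FoxK1 KD basal replicate 3, and insulin left them at 1.8 ± 0.717 CPM (SD, n = 4). The theta-class genes Gstt1, Gstt2 and Gstt3 and the zeta-class Gstz1, an enzyme of tyrosine breakdown, were not called in any comparison. Their mean levels ranged from 3.12 CPM (Gstt2, FoxK1 KD basal) to 16.5 CPM (Gstz1, FoxK1 KD basal).

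Mgst1, a microsomal transferase of the endoplasmic reticulum and outer mitochondrial membrane, rose with insulin in Control cells from 51.9, 48.0, 49.9 and 61.1 to 73.0, 62.9 and 75.8 CPM, without overlap (1.33-fold, log2 0.42, SE 0.13, adjusted p = 0.0151 by edgeR). It rose to the same extent in DKD cells (1.33-fold, adjusted p = 0.0232), beside log2 0.18 in FoxK1 KD (adjusted p = 0.273) and 0.26 in FoxK2 KD cells (adjusted p = 0.0976). The Control call was lost without Control insulin replicate 1 or 3, and the DKD call without DKD basal replicate 1 or 2 or DKD insulin replicate 2 or 3. Mgst3 rose in FoxK1 KD cells (log2 0.74, SE 0.29, adjusted p = 0.045), a call lost without any of 7 of the 8 samples in turn and with limma-voom (adjusted p = 0.0682). Control basal replicate 1 had 2.83 CPM of Mgst3 beside 10.8 to 15.2 CPM in the other 3. Mgst2 was not called.

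Of the 5 peroxidase genes, Gpx1 and Gpx4 were tested, and both were lower in Control cells after insulin. Gpx1, the cytosolic selenoenzyme that reduces hydrogen peroxide, had 205, 116, 159 and 165 CPM at basal and 130, 92.6 and 104 CPM after insulin (0.680-fold, log2 -0.56, SE 0.18, adjusted p = 0.0183 by edgeR). The ranges overlapped through basal replicate 2, and the call was lost without Control basal replicate 1 (adjusted p = 0.069) or Control insulin replicate 2 or 3. In FoxK1 KD cells Gpx1 had 136, 99.7, 120 and 126 CPM at basal and 148, 147, 144 and 186 CPM after insulin, so that all insulin samples were above all basal samples, but the change did not pass the test (log2 0.37, SE 0.16, adjusted p = 0.0782).

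Gpx4, which reduces lipid hydroperoxides in membranes and restrains ferroptosis, fell with insulin in Control and FoxK2 KD cells. Control cells had 83.6, 110, 134 and 129 CPM at basal and 88.3, 78.7 and 83.9 CPM after insulin, overlapping through basal replicate 1 (0.730-fold, log2 -0.45, SE 0.14, adjusted p = 0.0132 by edgeR). The Control call was lost without Control basal replicate 3 or Control insulin replicate 2. FoxK2 KD cells had 145, 171, 143 and 140 CPM at basal and 77.6, 80.9, 113 and 101 CPM after insulin, without overlap (0.620-fold, log2 -0.69, SE 0.12, adjusted p = 6.31e-05). Of the 50-base stretches of Gpx4, 34.7% also occur in other genes, mainly the pseudogene Gpx4-ps2, and reads from there were divided or dropped in a way the sources used here do not give.

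**Figure D5:**
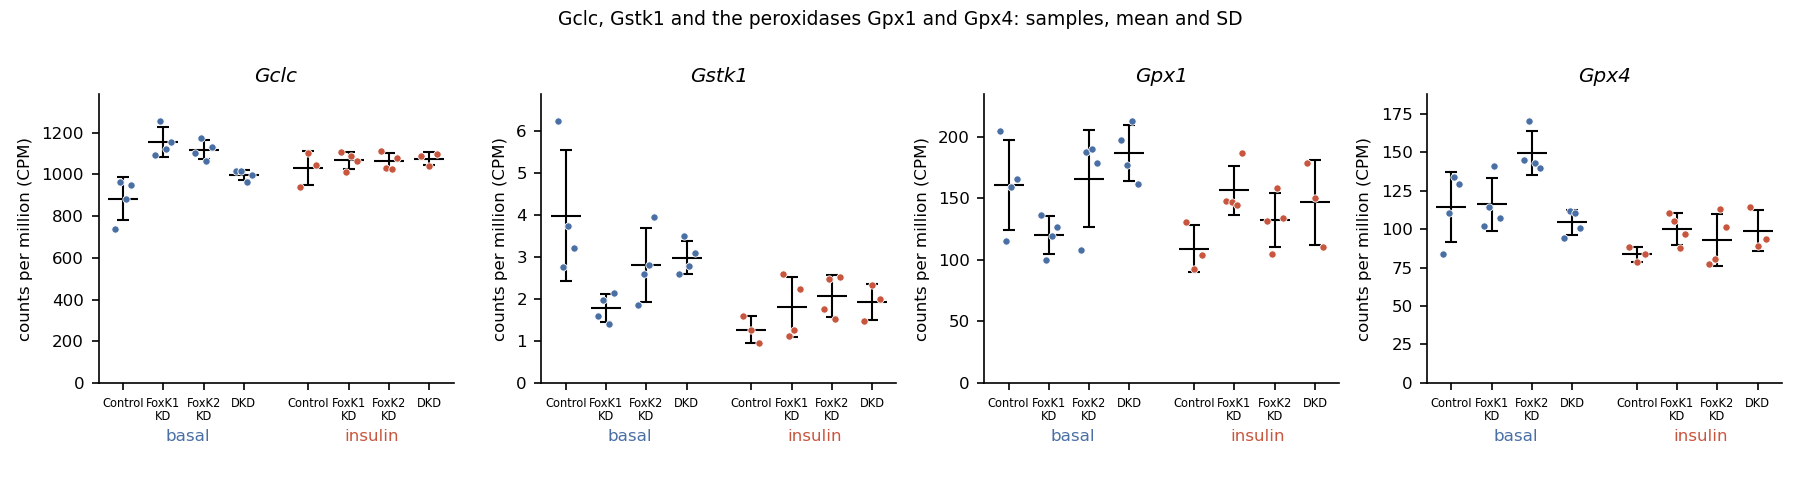
CPM of Gclc, Gstk1, Gpx1 and Gpx4 in each sample (points) with the mean and SD (bars), at basal (blue) and after insulin (red). The 4 FoxK2 KD basal samples of Gpx4, from 140 to 171 CPM, lie above its 4 insulin samples, and Gstk1 in Control cells falls to 1.58 CPM and below with insulin.

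Insulin effects were also compared directly between each knockdown and Control. By edgeR 0 of the 25 genes passed in FoxK1 KD minus Control (0.0% of all genes were called), although 4 had an unadjusted p under 0.05, Gclc, Gclm, Gstk1 and Gpx1, and DESeq2 called 1 and limma-voom 0. The value for Gpx1 was 0.93 on the log2 scale with an SE of 0.24 (adjusted p = 0.138), with an insulin effect of 0.37 in FoxK1 KD cells (not called) and a fall of 0.56 in Control cells. In FoxK2 KD minus Control edgeR, DESeq2 and limma-voom called 0 genes, with 3 at an unadjusted p under 0.05 (Gclc, Gsto1, Gstk1; 0.0% of all genes). In DKD minus Control the same tools called 0, with 1 at an unadjusted p under 0.05, Gsto1 (log2 -0.37, SE 0.15, adjusted p = 0.209), where 1.54% of all genes were called, 1.0% higher and 0.537% lower. These differences have a median SE of 0.19 to 0.2 over all genes, and differences well above it, such as that of Gpx1, also did not pass. The absence of calls therefore does not show that the insulin effects were equal.

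The 7 genes below the filter were near the limit of these libraries. In all 30 samples together Gpx7 had 0 counts, Gstm3 4, Gsta1 7, Gsta2 8 and Gpx8 17, and Gsta1 and Gsta2 share 90.5% and 49.8% of their 50-base stretches with other genes. Gpx3, the secreted plasma peroxidase, had 164 counts in all, with 7, 7, 10 and 11 in Control cells at basal and 3, 6 and 0 after insulin. Gstm6 had 81 counts in all. The study names this gene for insulin from these same libraries. Its counts in Control cells were 1, 1, 2 and 0 at basal and 4, 7 and 2 after insulin, and in DKD cells 1, 4, 1 and 4 at basal and 1, 4 and 3 after insulin. In the fit without a filter on low counts (23784 genes), read for these 7 genes after their counts were seen, Gstm6 rose with insulin in Control cells (log2 2.28, SE 0.79, adjusted p = 0.0383 by edgeR), and DKD minus Control was -2.35 (SE 1.09, adjusted p = 0.451).

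Other genes of glutathione metabolism were read from a list of 41, of which 29 were tested. Insulin raised 7 and lowered 2 of the 29 in Control, 8 and 2 in FoxK1 KD, 7 and 6 in FoxK2 KD and 3 and 3 in DKD cells, where 25.4%, 31.6%, 28.1% and 16.3% of all tested genes were called. Cth, which makes cysteine from cystathionine, rose in all 4 genotypes (log2 1.11 in Control cells, and 1.22 with FoxK1 KD, 1.24 with FoxK2 KD and 1.23 with DKD), as did Chac1, which degrades glutathione (log2 0.69, 2.49, 1.42 and 1.67). Hpgds, a sigma-class transferase that makes prostaglandin D2, fell in all 4 (log2 -0.75, -0.58, -0.86 and -0.56). At basal, where 21.1% of all genes were called, DKD raised 5 of the 29, Glo1, Cndp2, Hagh, Anpep and Cbs (log2 0.40 to 1.17), and lowered 3, Chac1 (log2 -1.04), Abcc2 (-0.48) and Abcc4 (-0.18). Gstp1 and Gstp2, near-identical neighbours, had 0 counts in all samples. How reads that match both were counted is not given in the sources used here, so this does not show that they were unexpressed.

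Of 23 genes of thiol reduction and NADPH supply 21 were tested, and with insulin 7 were higher and 1 lower in Control, 6 and 4 in FoxK1 KD, 5 and 3 in FoxK2 KD and 7 and 2 in DKD cells, beside the same shares of all genes. G6pdx and Pgd, the NADPH-forming enzymes of the pentose phosphate pathway, rose in all 4 genotypes (log2 0.44 and 0.62 in Control), as did Idh1 (0.31), Srxn1 (0.73) and Hmox1 (0.64). Txnip, the thioredoxin inhibitor, fell in all 4 (log2 -1.72 in Control and -2.40 in FoxK1 KD cells). At basal DKD raised 2 of the 21, Idh2 (log2 0.31) and Sod1 (0.41), where 10.3% of all genes were higher. Of 7 tested regulators, Atf4 rose with insulin in all 4 genotypes (log2 0.59, 0.78, 0.68 and 0.46). Insulin also raised Ahr in Control (log2 0.70), Keap1 in FoxK1 KD (0.41) and FoxK2 KD (0.36) and Mafk in FoxK2 KD cells (0.43). It lowered Bach1 in FoxK1 KD cells (-0.36). Nfe2l2 (NRF2) was not called in any comparison. In FoxK1 KD cells at basal Atf4 (log2 -0.42, adjusted p = 0.0155 by edgeR) and Mafg (-0.40, adjusted p = 0.0431) were lower. For DKD against Control at basal edgeR called 0 regulators, with 2 at an unadjusted p under 0.05.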

How the data were processed

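AML12 RNA was poly(A)-selected and sequenced by the study's authors, who deposited raw read counts per gene for each of the 30 samples, unnormalized. The submitters' processing notes name CASAVA 1.8, STAR 2.4.2a, featureCounts and GRCm38.p4, and the strand setting is not given in the sources used here. The 32 genes and all other lists were chosen with earlier results of these data known.

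Groups were taken from the labels. Genes were filtered by edgeR's filterByExpr, scaled by TMM and fitted with edgeR 4.0.16 (R 4.3.3) in 1 quasi-likelihood model of 8 groups, with 13 comparisons. P-values were adjusted by Benjamini-Hochberg over 11368 genes and called at an FDR below 0.05 (the study used 0.25). The SE is the log2 fold change divided by the root of F. CPM used TMM-adjusted totals, and RPKM the exonic length in GENCODE M21 (GRCm38). Per-sample values and full statistics go to genes called for DKD against Control at basal, for the insulin effect in Control or for its difference in DKD (up to 5 per direction), and to Slc7a11 and Gstm6, which the study names for insulin. Other called genes get a value, some with their samples. Alternatives used DESeq2 1.42.0, limma-voom 3.58.1, other scalings and filters, a replicate block, an offset for GC content and length (99.8% of genes had both), only the groups compared, other thresholds and each sample left out. The test was checked on simulated data. Of 42 replicate pairs, the closest differed by more than sampling noise (chi-square per degree of freedom 1.75).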

Additional observations from a re-analysis of the deposited data

Results flagged for a closer look

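In 150 groups of 4 samples, 9 held a sample far from the other 3, where chance flags about 1 in 20. Oplah had 26.8 CPM in FoxK2 KD basal replicate 3 beside 23.8 to 24.1 CPM in the others, and 26.2 CPM in DKD basal replicate 4 beside 34.7 to 36.1. Gstm4 had 3.33 CPM in FoxK1 KD insulin replicate 1 beside 6.35 to 6.72, and Gstt1 had 6.65 CPM in the same library beside 10.8 to 11. Gstm5 had 17.7 CPM in DKD basal replicate 4 beside 18.9 to 19.0, and Mgst2 had 9.60 CPM in DKD basal replicate 2 beside 12.5 to 12.6. Mgst3 had 9.50 CPM in FoxK1 KD basal replicate 1 beside 5.28 to 5.65. Gpx1 had 107.7 CPM in FoxK2 KD basal replicate 1 beside 178.9 to 189.5, and 186.3 CPM in FoxK1 KD insulin replicate 4 beside 144.4 to 147.8.

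The insulin effect on Gsto1 differed between DKD and FoxK1 KD cells by -0.58 on the log2 scale (SE 0.14). This comparison was chosen because the samples separated in opposite directions, so the same values cannot test it.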

How the results depend on the processing

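No call of a glutathione gene turned its direction in any alternative run. Of the 49 calls of single genes, 49 were kept with DESeq2's size factors, 48 with upper-quartile scaling, 48 with limma-voom, 47 with DESeq2, 43 with no filter, 43 with the GC and length offset, 34 with only the groups compared, 25 under the study's insulin criterion (FDR of 0.25, 1.5-fold), and 38 of the 38 still tested with at least 10 counts in every sample. With 1 sample left out, 22 of the 49 calls were kept in every fit and 27 were lost in at least 1, and the cause was not tested. With only the groups compared, the calls lost were Gclc, Gstm1 and Gstk1 for FoxK1 KD, Gclc for FoxK2 KD and Gsr for DKD at basal, Slc7a11 and Gstm2 for FoxK1 KD and Gstm2 and Gstm7 for DKD after insulin, and Gclc, Gstm5, Gstm7, Mgst1, Gpx1 and Gpx4 for the insulin effect in Control, with adjusted p from 0.0509 to 0.526.

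Counts of called genes moved by over 1.5 times as follows. For FoxK1 KD against Control at basal the 3 calls became 5 with no filter, 6 with the offset, 0 with only the groups compared and 13 at an FDR of 0.25. For FoxK2 KD at basal the 1 call became 2 with no filter, 0 with only the groups compared and 5 at 0.25. For DKD at basal the 7 became 12 at 0.25 and 4 when a fold change above 1.5 was also required. After insulin, the 3 calls of FoxK1 KD became 7 at 0.25 and the 3 of DKD became 1 with only the groups compared. For the insulin effect in Control the 10 became 4 with only the groups compared, 16 at 0.25 and 5 with the fold change. At 0.25 and then with the fold change, the insulin effect gave 15 and 4 in FoxK1 KD, 15 and 4 in FoxK2 KD and 11 and 3 in DKD cells. FoxK1 KD minus Control gave 1 with DESeq2, 1 with no filter, 3 at 0.25 and 2 with the fold change, and DKD minus Control 1 at 0.25.

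Leaving out 1 sample gave 2 to 3 calls for FoxK1 KD, 0 to 1 for FoxK2 KD and 6 to 8 for DKD at basal. After insulin it gave 0 to 3 for FoxK1 KD (0 without Control insulin replicate 3, 1 without FoxK1 KD insulin replicate 4) and 1 to 3 for DKD (1 without Control insulin replicate 3 or DKD insulin replicate 2). The insulin effect gave 6 to 11 in Control (6 without Control insulin replicate 2 or 3), 5 to 8 in FoxK1 KD (5 without FoxK1 KD insulin replicate 2 or 4), 6 to 9 in FoxK2 KD and 2 to 6 in DKD cells (2 without DKD insulin replicate 3, 4 without DKD basal replicate 1, 2 or 3), and 0 to 1 in FoxK1 KD minus Control.

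Same-numbered samples of different groups did not deviate together on average (mean r -0.013 over 99 pairs, 0.0043 over 294 other pairs). This average mixes all groups, so it cannot show whether samples of the same number came from matched cultures. With the replicate block, 47 of the 49 calls were kept, Gstm1 in FoxK1 KD at basal (adjusted p = 0.0563) and Mgst3 with insulin in FoxK1 KD (adjusted p = 0.053) being lost. FoxK1 KD against Control at basal then gave 2 calls, the insulin effect in FoxK1 KD cells 7, DKD at basal 7 and the insulin effect in Control 10. Gstk1 (3 to 22 counts per sample) and Ggct (5 to 20) allow only large differences to be seen.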
